A study of Mus musculus with 24 samples.

Results

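Natural killer (NK) cells sorted from the spleens of mice that had received RMA lymphoma cells 4 days earlier were compared with NK cells from control mice by bulk RNA sequencing. The members are the 3 libraries whose titles give RMA and the intermediate day 4, and the 4 libraries titled control, which makes 7 of the 24 libraries in the series. All animals were wild-type C57BL/6J mice, female and 7 to 9 weeks old by the study's methods. RMA is a mouse T cell lymphoma line that keeps its MHC class I molecules and does not itself stimulate NK cells, and it was injected into a vein. The control mice carried no tumor. The cells were taken by flow cytometry as positive for NK1.1 or NKp46 and negative for lineage markers that include CD3, CD5 and the T cell receptors, so the gate would remove both T cells and the lymphoma. NK cells of RMA-bearing mice at day 2 and day 9, 3 libraries each and of the same strain, sex and age, serve below to place day 4 in time.

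NK cells are lymphocytes that kill tumor and infected cells with perforin and granzymes and secrete interferon-gamma and chemokines. In the resting spleen few of them divide, and type I interferon, interleukin-12 and interleukin-15 prime them and drive their division. A dividing cell first copies its DNA with the MCM helicase, polymerases and nucleotide-making enzymes (S phase), then separates its chromosomes with kinesins, kinases and condensins (G2 and mitosis). Interferon acts through its receptors and the factors they activate on many antiviral genes.

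Values are read counts per gene. The 4 control libraries held 5138651, 10526995, 9617408 and 10562991 counted reads, and the 3 day 4 libraries held 11817151, 10955743 and 9212393. Levels below are normalized CPM (counts scaled to a common total with edgeR's TMM factors), and library numbers follow the labels. The limit set by 3 counts in 1 library lay between 0.265 and 0.555 CPM in these 7 libraries. Such limits, and the intervals of count ratios, cover counting error only. Log2 fold changes come from edgeR's quasi-likelihood fit to all 24 libraries, with 4 controls and 3 day 4 libraries in the contrast. Standard errors (SE) were worked back from its test, as the size of the log2 fold change over the square root of the F statistic. A gene counted as called where its adjusted p was under 0.05 over the 17097 genes tested and its fold change was above 2. The p-values measure the spread between libraries, and the labels do not state whether each library came from 1 animal. The study counts 3 mice per group in the legend of its late RNA sequencing comparisons, which does not cover day 4.

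The libraries within a group were not alike. Controls 1 and 4 had counts in 23111 and 27820 genes, against 19370 and 19446 in controls 2 and 3 and 15878, 18247 and 15289 in the day 4 libraries. On the first principal component of all 24 libraries, controls 1 and 4 lay at -76.8 and -80.0, controls 2 and 3 at -2.46 and -8.12, and the day 4 libraries at 78.8, 50.1 and 79.5. Controls 1 and 4 therefore stood apart from the other 2, and control 1 had the fewest reads of all 24 libraries. Reads in pseudogenes made up 0.739%, 0.513%, 0.611% and 0.618% of the control libraries and 0.365%, 0.352% and 0.315% of the day 4 libraries. The groups did not overlap in that share, and its part in the results was not tested. The median log2 fold change of all genes tested was -0.29, while it was 0.00 over the 8357 genes with a mean above 10 CPM. Changes relative to the median of all genes are given with most of the gene groups.

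**Figure D1:**
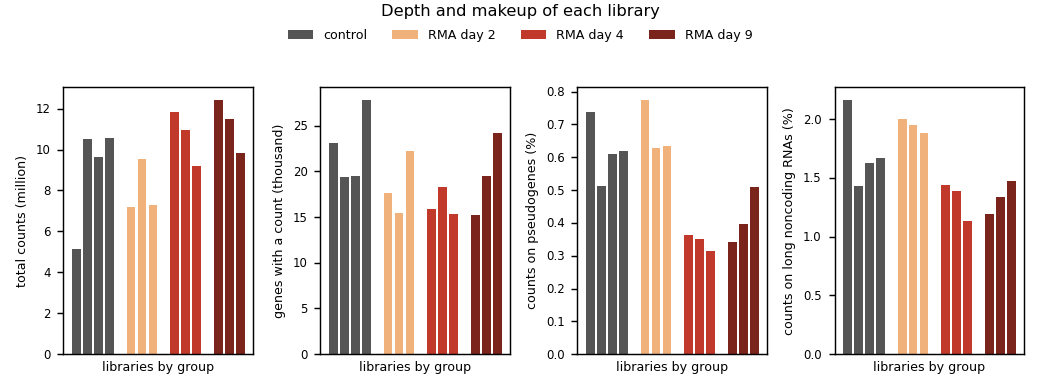
Each bar is 1 library of the control, RMA day 2, day 4 or day 9 groups, showing its total counts, the number of genes with any count, and the percent of counts on pseudogenes and on long noncoding RNAs. The 3 day 4 libraries lie between 0.315% and 0.365% for pseudogenes and below the 4 controls, which lie between 0.513% and 0.739%.

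The cells carried the markers of their label. Of 12 NK cell markers, 11 had a mean above 10 CPM in the controls, and the other, Ncr3-ps, a pseudogene in laboratory mice, had 1 count in the controls. Ncr1, which encodes NKp46, had 2951, 3641, 3679 and 3086 CPM in the controls and 2785, 2698 and 2843 CPM at day 4. Klrb1c, the gene of NK1.1, had 1505, 2154, 2331 and 1970 CPM against 1479, 1304 and 1481 CPM. Both genes were abundant in every library, and in both the 3 day 4 libraries lay below the controls. Their log2 fold changes were -0.27 (edgeR, adjusted p = 0.421) and -0.49 (adjusted p = 0.177), neither past the test. The summed level of the 12 markers overlapped between the groups, at 26023, 33074, 36755 and 24221 CPM in the controls and 33772, 27479 and 31953 CPM at day 4. Gzma, Prf1 and Nkg7 made up most of that sum and had the only higher estimates of the 11 tested. The median of the 11 was -0.49, beside -0.29 for all genes, 5 had all 3 day 4 libraries below the controls, and 9 had an unadjusted p under 0.05, with none called.

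Many markers of the cells that the gate removes had no count at day 4, while Ccr2 and Ly6c2 of the macrophage and monocyte list were abundant in every library. The 16 markers of T cells and of the lymphoma summed to 723, 640, 598 and 693 CPM in the controls and 534, 565 and 523 CPM at day 4, and Trbc1, a T cell receptor constant segment that NK cells also transcribe, was the most abundant at a mean of 261 and 196 CPM. Cd4, Cd8a, Cd5 and Cd6 had no count in any day 4 library. Cd3e had a mean of 1.25 CPM in the controls, all of it from control 4 at 5 CPM, and of 0.7 CPM at day 4. The other controls had no Cd3e count, while the day 4 libraries had 0.970, 0.0981 and 1.03 CPM. The 19 B cell markers summed to 306, 343, 261 and 483 CPM against 356, 343 and 328 CPM, nearly all of it Ighm, while Pax5, Ms4a1, Blk, Fcmr and Fcer2a had no count at day 4. The 19 macrophage and monocyte markers summed to 1525, 1577, 1526 and 1462 CPM against 1356, 1351 and 1459 CPM, led by Ccr2, with 8 of the 19 at 0 at day 4, among them Adgre1, Cd14 and C1qa. Of 15 granulocyte markers, 14 had no count at day 4, and their sums were 3.33, 0.193, 0.527 and 4.37 CPM in the controls and 0, 0.196 and 0 CPM at day 4. In sum these 4 lists were lower than or level with the controls at day 4. Within the T cell and lymphoma list, 3 of 13 tested members had higher estimates at day 4. Means of Cd3g were 6.47 and 8.22 CPM and those of Trac 8.40 and 9.05 CPM, with overlap. Thy1 had 11.7 to 25.0 CPM in the controls and 46.7, 51.0 and 57.9 CPM at day 4. It was the only tested member with all 3 day 4 libraries above the controls, while 2 had all 3 below. Its log2 fold change of 1.31 did not pass (edgeR, adjusted p = 0.106), and it was named after its values were seen.

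The dendritic and red blood cell lists were higher in sum in all 3 day 4 libraries, and the platelet and plasma cell lists overlapped the controls. The 11 dendritic cell markers summed to 683, 424, 481 and 638 CPM in the controls and 881, 1003 and 1006 CPM at day 4, led by Itgax, an integrin that NK cells also express, at means of 518 and 844 CPM. Bst2 of that list is also an interferon-stimulated gene and was called, while Flt3, Siglech, Clec9a, Cd209a and Clec10a had no count at day 4. The 11 red blood cell markers found summed to 486, 381, 335 and 355 CPM against 718, 528 and 620 CPM, led by Car2, and 4 of them, both alpha-globin genes included, were at 0 at day 4. The 10 platelet markers summed to 9.24, 4.82, 10.1 and 30.3 CPM against 28.7, 47.5 and 45.2 CPM, led by Itgb3 at means of 9.91 and 38.6 CPM, with Gp9, Gp5 and Treml1 at 0 at day 4. Itgb3 lay above the controls in all 3 day 4 libraries, at a log2 fold change of 1.95 that did not pass (edgeR, adjusted p = 0.231). Itgb3 was called by edgeR without the filter on low counts (adjusted p = 0.00207) and with replicate number as a block (3.24, adjusted p = 0.0106). The 9 plasma cell markers summed to 1.11, 0.386, 2.21 and 3.66 CPM against 5.91, 0.883 and 1.26 CPM, led by Jchain, with 5 at 0 at day 4. The part of these cells in the results was not tested. In bulk libraries, fewer cells of a type and less RNA per cell cannot be told apart.

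At day 4 the NK cells held more RNA of cell division and of the interferon response. Of 282 genes called by edgeR in day 4 against control, 216 were higher (1.26% of the genes tested) and 66 were lower (0.386%). Among the called higher genes the median change was 2.09 on the log2 scale, and 62 of them belonged to the S phase and mitosis lists and 16 to the 2 interferon lists. The called lower genes had a median of -1.46, and 2 of them, Cd7 and Klrc2, stood in any of the 16 pathway lists. Of the higher genes 215 code for protein, against 52 of the lower ones. Day 4 libraries did not overlap the controls in 281 of the 282. Over all genes tested, 10.2% had all 3 day 4 libraries above the controls and 10.5% all 3 below. The calls rest on these same libraries, so the 281 are no separate support for them.

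Before the fold threshold 401 genes passed the adjusted p, and 2726 had an unadjusted p under 0.05. The count depended on single libraries and on the fit. It fell to 175 without control 1, 175 without control 4, 176 without day 4 library 2 and 166 without day 4 library 3. The called higher genes numbered 141 without control 1, 129 without control 4 and 138 without day 4 library 2. The called lower genes numbered 34 without control 1, 41 without control 3, and 25, 38 and 18 without day 4 libraries 1, 2 and 3. Without the pair of controls that stood apart, 61 genes were called, 55 higher and 6 lower, and 59 of the 61 were among the 282. DESeq2 with default settings called 620, 338 higher and 282 lower, and edgeR on the 7 libraries alone called 762, 475 higher and 287 lower. DESeq2 with its earlier prior called 450 and edgeR without the filter on low counts 477.

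**Figure D2:**
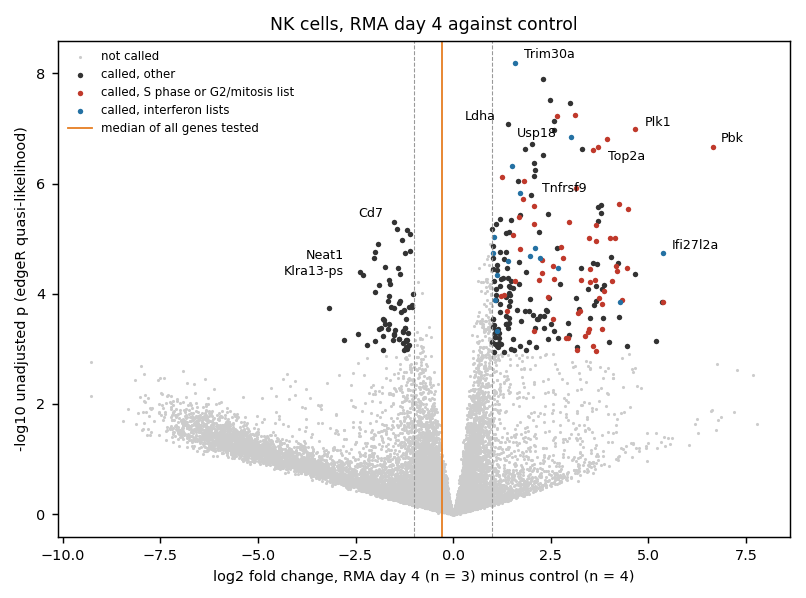
Each point is 1 of the 17097 genes tested, with the log2 fold change of RMA day 4 minus control across and the unadjusted p on a minus log10 scale upward. The 216 called higher and 66 called lower genes are the large dots, red for the S phase and mitosis lists, blue for the interferon lists and black for others, with dashed lines at a 2-fold change and an orange line at the median of all genes, -0.29.

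Genes of chromosome separation rose most as a group. Of 55 genes of G2 and mitosis, all tested, 40 were called, all of them higher, and in 54 the 3 day 4 libraries lay above all 4 controls, where 10.2% of all genes tested did so. The median log2 fold change of the list was 3.47, or 3.76 above the median of all genes. Top2a, the enzyme that untangles replicated DNA, had 103, 41.8, 45.6 and 44.0 CPM in the controls and 572, 817 and 718 CPM at day 4. Every day 4 library held over 5 times the highest control, and control 1 was the highest of the controls. The change of Top2a was 3.59 on the log2 scale (SE 0.498, edgeR, adjusted p = 0.000229, 3 of 3 libraries above the controls). Plk1, a kinase that drives entry into mitosis, had 13.7, 1.83, 4.42 and 3.21 CPM in the controls and 122, 156 and 149 CPM at day 4. Plk1 was low in all 4 controls, again highest in control 1, and its change was 4.67 (SE 0.615, edgeR, adjusted p = 0.000179, 3 of 3 above).

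Pbk, a mitotic kinase, showed the largest called change of a gene named here, from 0.739, 0, 1.79 and 0.0893 CPM in the controls to 52.4, 72.0 and 72.0 CPM. Controls 2 and 4 of Pbk lie below the 3-count limit and controls 1 and 3 above it, and its log2 fold change of 6.66 (SE 0.919, edgeR, adjusted p = 0.000229, 3 of 3 above) depends on few control reads. Mad2l1, part of the checkpoint that holds cells until the chromosomes are attached, had 21.8, 19.5, 20.6 and 22.3 CPM in the controls and 132, 139 and 129 CPM at day 4. Its libraries lay close together within each group, and the change was 2.66 (SE 0.340, edgeR, adjusted p = 0.000169, 3 of 3 above). The spindle and kinetochore genes Nusap1, Tacc3 and Spc24 rose by 4.25, 3.15 and 4.47, and Incenp, which places Aurora B on chromosomes, and the condensin gene Smc4 rose by 1.81 and 1.25. These 5 were called under every setting tried. Aurkb (4.33) lost its call without controls 2, 3 or 4, with adjusted p of 0.0545, 0.0551 and 0.0658, and was higher than every control in 3 of 3 libraries each time. Mki67, the gene of the division marker Ki67, had 60.8, 13.7, 51.4 and 7.05 CPM in the controls and 267, 358 and 266 CPM at day 4. Its controls split into 2 high and 2 low libraries, all below day 4. Mki67 was called at a change of 3.17 (SE 0.847, edgeR, adjusted p = 0.0467, 3 of 3 above), but leaving out any of the 7 libraries raised the adjusted p above 0.05, to between 0.0771 and 0.181.

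The list count of 40 was 26 without control 4 and 20 without controls 1 and 4. The list median ran from 1.84, in DESeq2 with its earlier prior, to 3.93, without control 1. By library, the median of the list against the mean of the controls was 1.13, -0.27, 0.13 and -0.63 in the controls and 3.57, 3.92 and 3.84 at day 4. The 3 day 4 libraries were close to each other, while control 1 lay above the other controls.

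**Figure D3:**
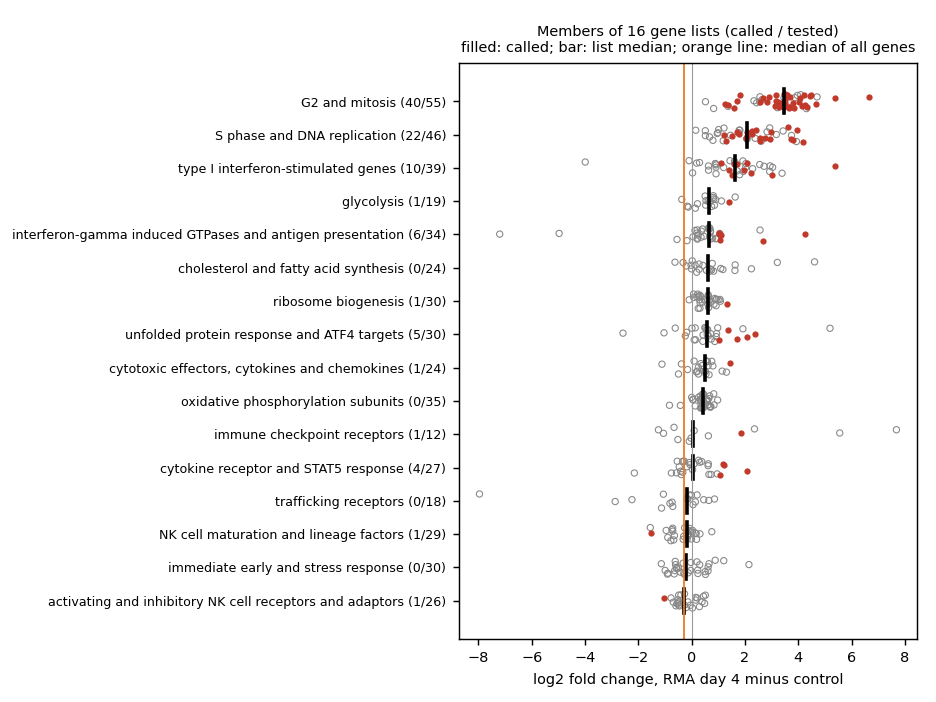
Each point is 1 tested member of a gene list, placed by its log2 fold change of RMA day 4 minus control, with called members filled, the list median as a bar and the median of all genes, -0.29, as a line. The G2 and mitosis list has a median of 3.47 with 40 of 55 called, and points far to the left are members with few or no counts in 1 group.

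Promoters are shown for the mitosis genes because their list had the largest share of called members and because they moved together. The cell cycle genes homology region (CHR), TTTGAA on either strand, is a short motif known from promoters of mitosis genes. Sequences came from RefSeq on GRCm38.p6, which held promoters of 27025 genes, and 44 of the 55 members matched by symbol. In the window from 250 bases before to 50 after the start, 31 of the 44 (70.5%) held TTTGAA, against 20.2% of all genes, and 23 of the 31 called members with a promoter held it. In the 250 bases before the start alone the shares were 36.4% and 18.3%. The 3 printed are the members of smallest p whose 250 bases before the start hold the motif, with each match in capitals, which reads TTCAAA where it lies on the other strand. Kif22, a chromosome-arm kinesin, is at chr7:127042421-127042670 on the minus strand, Kif11, the kinesin that pushes spindle poles apart, at chr19:37376132-37376381 on the plus strand, and Top2a at chr11:99024190-99024439 on the minus strand.
Kif22: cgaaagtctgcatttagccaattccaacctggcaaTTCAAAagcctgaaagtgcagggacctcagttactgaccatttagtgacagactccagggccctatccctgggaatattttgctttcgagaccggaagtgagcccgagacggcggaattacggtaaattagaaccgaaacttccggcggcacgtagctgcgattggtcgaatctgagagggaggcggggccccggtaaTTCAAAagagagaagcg
Kif11: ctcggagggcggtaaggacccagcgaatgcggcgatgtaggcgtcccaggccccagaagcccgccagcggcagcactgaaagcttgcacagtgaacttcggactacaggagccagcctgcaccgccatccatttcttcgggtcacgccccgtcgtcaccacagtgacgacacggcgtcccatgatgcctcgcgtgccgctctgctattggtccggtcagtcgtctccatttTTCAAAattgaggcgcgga
Top2a: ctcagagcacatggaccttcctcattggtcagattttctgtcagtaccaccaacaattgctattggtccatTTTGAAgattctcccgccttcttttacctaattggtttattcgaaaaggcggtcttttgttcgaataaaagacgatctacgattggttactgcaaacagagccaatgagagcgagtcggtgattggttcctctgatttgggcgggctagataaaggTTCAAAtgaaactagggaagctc
In all 3 genes the match nearest the start lies 11 to 17 bases before it. A match is a description of letters, not a site or a cause.

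Levels of the other printed genes moved alike. Kif22 had 33.6, 19.9, 18.5 and 12.1 CPM in the controls and 154, 187 and 204 CPM at day 4, a change of 3.12 (SE 0.397, edgeR, adjusted p = 0.000169, 3 of 3 above). Kif11 had 35.7, 18.4, 21.1 and 5.62 CPM and then 208, 285 and 289 CPM, a change of 3.70 (SE 0.511, edgeR, adjusted p = 0.000229, 3 of 3 above). Control 4 was the lowest control for both kinesins, and no control came near a day 4 library.

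DNA replication genes rose as well, by less. Of 46 genes of S phase, all tested, 22 were called, all of them higher, and 44 had all 3 day 4 libraries above the controls. The median was 2.08, or 2.37 above that of all genes. Mcm6, a subunit of the helicase that opens DNA, was the most abundant of the list, with 292, 344, 286 and 243 CPM in the controls and 757, 1249 and 1002 CPM at day 4. The groups of Mcm6 did not overlap, day 4 library 2 was the highest, and the change was 1.78 (SE 0.283, edgeR, adjusted p = 0.00109). Rrm2, the regulated subunit of the enzyme that makes deoxynucleotides, had 49.9, 12.2, 22.4 and 9.29 CPM in the controls and 298, 444 and 327 CPM at day 4. Control 1 was again the highest control, still over 5 times lower than any day 4 library, and Rrm2 changed by 3.94 (SE 0.533, edgeR, adjusted p = 0.000221, 3 of 3 above). Ccne1, the cyclin that opens S phase, and Lig1, the ligase of Okazaki fragments, rose by 2.98 and 2.76 (edgeR, adjusted p = 0.00197 and 0.00376), each with 3 of 3 libraries above the controls. The summed level of the 46 genes was 2961, 3141, 3142 and 2775 CPM in the controls and 8295, 12308 and 9690 CPM at day 4. The controls lay close together in that sum, and day 4 library 2 was the highest.

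Without controls 1 and 4, 4 of the 46 were called, and on the 7 libraries alone 37 were. The letters searched for E2F on both strands were TTTCCCGC and TTTGGCGC. Of 37 members with a RefSeq promoter, 10 held either between 250 bases before and 50 after the start, against 1.80% of all genes. Of the 20 called members with a promoter, 5 held them there. In the 250 bases before the start alone, 6 of the 37 held them, against 1.51% of all genes.

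Interferon-stimulated genes formed the second large group. Of 40 listed, 39 were tested (Oas1g was not), 10 were called, all of them higher, and 30 had all 3 day 4 libraries above the controls. The list median was 1.63, or 1.92 above that of all genes. Trim30a, a restraint on innate signaling, had 164, 177, 224 and 162 CPM in the controls and 580.5, 555 and 484 CPM at day 4. Its lowest day 4 library was over 2 times the highest control, and its change of 1.57 (SE 0.177) had the smallest adjusted p of all genes tested (edgeR, 0.000109, 3 of 3 above). Usp18, the protease that takes ISG15 off proteins and damps the interferon receptor, had 16.6, 21.7, 55.9 and 23.3 CPM in the controls and 254, 236 and 223 CPM at day 4. Control 3 stood above the other controls, far below day 4, and the change was 3.01 (SE 0.405, edgeR, adjusted p = 0.000221, 3 of 3 above).

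Ifi27l2a, an interferon-induced membrane protein gene, was nearly silent in 3 controls, at 0.739, 0.772 and 0.625 CPM, with 6.00 CPM in control 3, and had 153, 39.8 and 63.2 CPM at day 4. Relative to its mean, it varied most among the day 4 libraries of the genes in the list named here. The change of Ifi27l2a was 5.36 (SE 0.997, edgeR, adjusted p = 0.00420, 3 of 3 above). Lgals3bp, Bst2, Oas1a, Rtp4, Xaf1 and Zbp1 were also called, with changes of 1.70, 2.09, 2.23, 1.98, 1.40 and 1.12. Zbp1, a sensor of Z-form nucleic acids, lost its call when any of the 7 libraries was left out, with its adjusted p at most 0.122. Isg15, the ubiquitin-like modifier, had 2.03, 5.88, 5.16 and 8.12 CPM in the controls and 23.7, 22.1 and 19.7 CPM at day 4. Its groups did not overlap, but its log2 fold change of 2.03 did not pass (SE 0.692, edgeR, adjusted p = 0.151). Rsad2, the antiviral enzyme viperin, had 0.739, 7.72, 0.948 and 3.30 CPM and then 32.6, 36.7 and 32.2 CPM, with a log2 fold change of 3.39 and an adjusted p of 0.106 in edgeR, higher in 3 of 3. Both genes were called by DESeq2 with default settings, where 18 members of the list were called. The list count was 4 without controls 1 and 4.

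Of 29 members with a RefSeq promoter, 16 (55.2%) held the core of the interferon-stimulated response element (ISRE), GAAANNGAA on either strand, against 9.76% of all genes. For the 250 bases before the start the shares were 41.4% and 8.18%. The promoters of 3 called members that hold the core there are printed because these genes rose together. They were chosen after their values were seen, with matches in capitals, which begin with TTC where they lie on the other strand. Trim30a is at chr7:104465194-104465443, Bst2, which tethers virus particles to the cell, at chr8:71537473-71537722, and Oas1a, which makes the activator of RNase L, at chr5:120907526-120907775, all on the minus strand of GRCm38.p6.
Trim30a: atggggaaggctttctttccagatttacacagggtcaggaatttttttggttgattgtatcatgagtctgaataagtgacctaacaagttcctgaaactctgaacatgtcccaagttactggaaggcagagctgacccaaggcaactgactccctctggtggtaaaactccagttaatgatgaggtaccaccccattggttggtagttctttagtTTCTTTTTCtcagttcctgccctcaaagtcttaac
Bst2: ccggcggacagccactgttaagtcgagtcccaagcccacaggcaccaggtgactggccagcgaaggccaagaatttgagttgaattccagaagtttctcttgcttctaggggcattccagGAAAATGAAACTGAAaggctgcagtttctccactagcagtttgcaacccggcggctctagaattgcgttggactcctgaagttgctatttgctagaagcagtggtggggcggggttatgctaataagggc
Oas1a: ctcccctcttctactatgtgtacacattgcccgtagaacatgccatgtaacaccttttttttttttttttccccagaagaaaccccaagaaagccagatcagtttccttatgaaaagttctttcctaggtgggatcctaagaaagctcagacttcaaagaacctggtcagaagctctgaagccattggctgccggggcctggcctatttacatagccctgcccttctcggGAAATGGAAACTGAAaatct
The match nearest the start lies 26 bases before it in Trim30a, 115 in Bst2 and 5 in Oas1a, and in the latter 2 genes a pair of overlapping matches forms 1 run of capitals. As above, these are descriptions of letters.

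Among 34 genes induced by interferon-gamma or used in antigen presentation, 6 were called, all of them higher. In 23 all 3 day 4 libraries lay above the controls, and the median was 0.66, or 0.95 above that of all genes. Irf8, a transcription factor of the interferon response, was abundant, with 942, 1086, 1426 and 757 CPM in the controls and 2152, 2187 and 2504 CPM at day 4. Its groups did not overlap and the change was 1.12 (SE 0.223, edgeR, adjusted p = 0.00678, 3 of 3 above), but it was 0.95 without control 4, under the fold threshold. The guanylate-binding protein genes Gbp10, Gbp6 and Gbp3 rose by 4.27, 2.68 and 1.05, and Tap1, the peptide transporter, and Psme2, a proteasome activator, by 1.01 and 1.06. Of these, Gbp3 fell short of 2-fold at 0.99 without control 1, 0.89 without control 4 and 0.99 without day 4 library 1, and Tap1 at 0.91, 0.98 and 0.99 without controls 1, 2 and 4. Psme2 had an adjusted p of 0.0568 without control 1 and 0.0577 without day 4 library 1. The list count was 3 without control 1, 3 without control 4 and 1 without both. Gbp genes are close paralogs whose reads can be misplaced, and the exons of Gbp6 and Gbp10 overlap those of Gm43302.

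Checkpoint receptors dampen NK and T cells. Of 14 listed, 12 were tested, 1 was called, and 3 had all 3 day 4 libraries above the controls. Over all genes tested 1.26% were called higher and 10.2% lay above the controls. Tigit, the called one, had 81.7, 66.7, 128 and 61.2 CPM in the controls and 252, 329 and 334 CPM at day 4. Control 3 was the highest control, below every day 4 library, and Tigit changed by 1.85 (SE 0.366, edgeR, adjusted p = 0.00622, 3 of 3 above). Its adjusted p was 0.152 without controls 1 and 4. Lag3, a receptor for MHC class II, had 11.5, 10.8, 19.6 and 22.1 CPM and then 81.8, 78.3 and 87.1 CPM, without overlap, at a log2 fold change of 2.36 that did not pass (SE 0.854, edgeR, adjusted p = 0.188). Havcr2, which encodes TIM-3, had 1 read in the 4 controls together and 247 at day 4, a ratio of 298 with a 95% counting interval of 53.0 to 11810. By library Havcr2 had 0, 0.0965, 0 and 0 CPM and then 4.85, 16.6 and 2.64 CPM, and its adjusted p was 0.0887 in edgeR. At day 2 Havcr2 had 0, 23.7 and 0 CPM, and its log2 fold change of day 4 minus day 2 was 0.02. Both Lag3 and Havcr2 were called by edgeR without the filter on low counts and on the 7 libraries alone. On mm10, Tigit lies on chromosome 16 from 43648867 to 43664146 and Havcr2 on chromosome 11 from 46454935 to 46481255. Nt5e, the gene of CD73, overlapped between the groups, as did Tox, a regulator of exhausted T cells, at log2 fold changes of 0.10 and -0.15. Pdcd1, the gene of PD-1, did not pass the filter on low counts.

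Of 24 effector, cytokine and chemokine genes 1 was called, and 8 had all 3 day 4 libraries above the controls. Over all genes tested 1.26% were called higher and 10.2% lay above the controls. Gzmb, the granzyme that cleaves caspases, had 990.1, 1569, 2887 and 811 CPM in the controls and 4490, 3973 and 4245 CPM at day 4. The controls of Gzmb varied over 3-fold, all below day 4, and its change was 1.44 (SE 0.298, edgeR, adjusted p = 0.00834, 3 of 3 above). Without control 1 its adjusted p was 0.0533. Prf1, the pore-forming perforin, had 3140, 4653, 5559 and 3297 CPM and then 5612, 6113 and 6809 CPM, with a log2 fold change of 0.57 that did not pass (SE 0.224, edgeR, adjusted p = 0.237, 3 of 3 above). Ifng had 253, 291, 373 and 59.3 CPM in the controls and 393, 337 and 374 CPM at day 4, and Ccl3, a chemokine, had 1124, 1422, 1900 and 164 CPM and then 1786, 1438 and 1670 CPM. Control 4 was far below the other controls for both of these genes, and the groups overlapped. The activation marker Cd69 had the same low control, at 60.4 CPM against 502, 189.5 and 417 CPM in controls 1 to 3, and 411, 345 and 382 CPM at day 4. Its log2 fold change of 0.38 turned to -0.01 without control 4. Ccl5, another chemokine, and Csf2, the gene of GM-CSF, overlapped too, at -0.15 and 0.62.

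Cytokine receptor and STAT5 response genes held 4 called members among 27, all higher, where 1.26% of all genes tested were called higher. Their median was 0.04, or 0.33 above that of all genes. All 3 day 4 libraries lay above the controls in 7 of the 27 and below them in 6. Over all genes tested those shares were 10.2% and 10.5%. Tnfrsf9, the costimulatory receptor 4-1BB, had 146, 181, 242 and 199 CPM in the controls and 681, 879.6 and 877 CPM at day 4. Every day 4 library lay above 2 times the highest control, and the change was 2.08 (SE 0.309, edgeR, adjusted p = 0.000536, 3 of 3 above). Myc, the growth regulator, had 57.5, 91.5, 75.0 and 63.0 CPM and then 144, 178 and 171 CPM, a change of 1.20 (SE 0.221, edgeR, adjusted p = 0.00415, 3 of 3 above). Without controls 1 and 4 Myc was not called, at a log2 fold change of 1.03 (edgeR, adjusted p = 0.129). The kinase gene Pim2 and the interleukin-12 receptor gene Il12rb1 were called at 1.07 and 1.22. Both lost the call without control 1, control 2, control 4, day 4 library 2 or day 4 library 3, and Pim2 also without control 3, so that without any 1 of those 5 libraries 2 members were called. Their adjusted p then reached 0.135 for Pim2 and 0.178 for Il12rb1, both still higher in all day 4 libraries. Il2rb, a receptor chain for interleukin-2 and interleukin-15, had 2062, 2260, 2061 and 3134 CPM and then 2033, 2807 and 2780 CPM, and the groups overlapped.

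**Figure D4:**
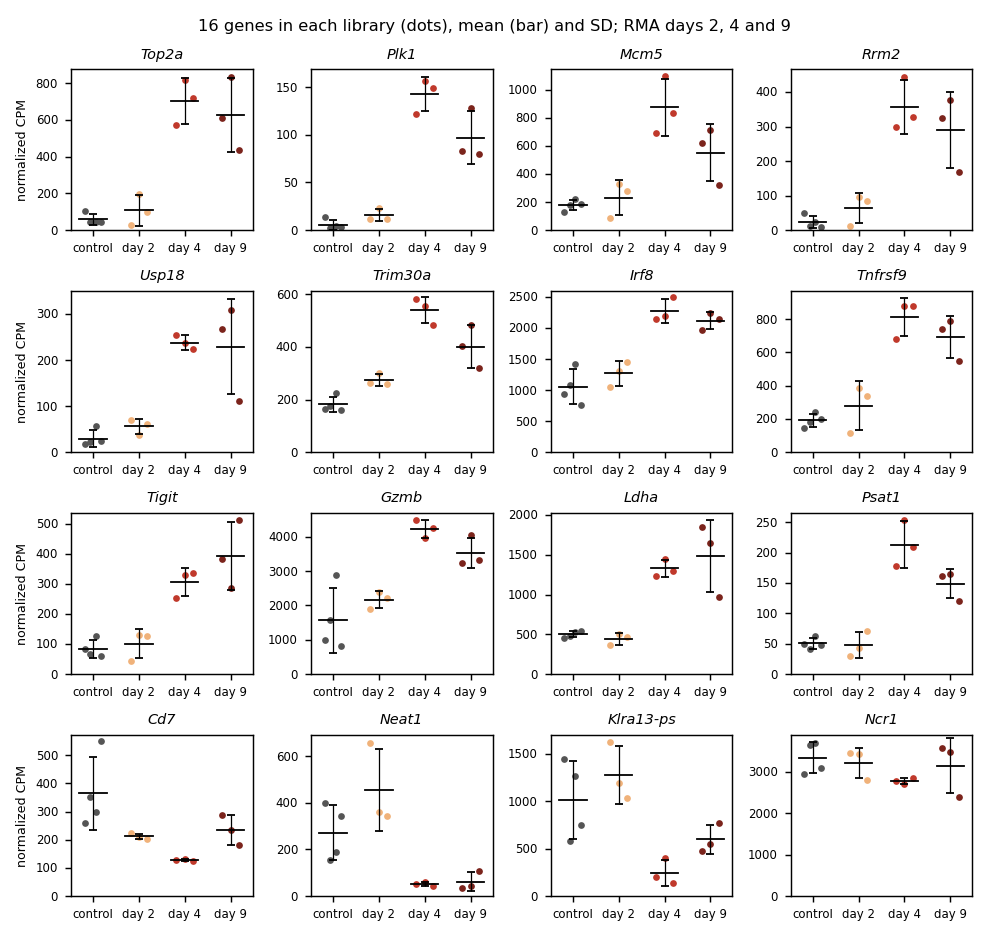
Each point is the normalized CPM of 1 gene in 1 library of the control, RMA day 2, day 4 and day 9 groups, with the mean as a bar and the SD as whiskers. Tnfrsf9 lies between 681 and 880 CPM in the 3 day 4 libraries, above the 4 controls.

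The list of the unfolded protein response and ATF4 held 5 called genes and the glycolysis list 1. Of 30 tested genes of the unfolded protein response and of ATF4, 5 were called higher and 19 had all 3 day 4 libraries above the controls, with a median of 0.59, or 0.89 above that of all genes. The called members were 3 genes of serine and one-carbon synthesis, Psat1, Phgdh and Mthfd2, and the chaperone partners Sdf2l1 and Manf. Psat1 had 49.5, 41.7, 63.1 and 47.8 CPM in the controls and 177, 253 and 209 CPM at day 4, without overlap, and changed by 2.08 (SE 0.298, edgeR, adjusted p = 0.000356, 3 of 3 above). Phgdh, Mthfd2, Sdf2l1 and Manf changed by 1.70, 2.36, 1.35 and 1.03, with 3 of 3 libraries above the controls. Phgdh lost its call without day 4 library 2 (adjusted p = 0.0673). Mthfd2 lost it without control 1, 2 or 4 or day 4 library 2 or 3 (up to 0.0665), Sdf2l1 without control 1, 3 or 4 or day 4 library 2 or 3 (up to 0.109), and Manf without any library but control 2 (up to 0.0855). The list count was 2 without control 1, 2 without control 4, 2 without day 4 library 2 and 3 without day 4 library 3. Among 19 glycolysis genes 1 was called and 11 had all 3 day 4 libraries above the controls. Their median was 0.67, or 0.96 above that of all genes. Over all genes tested 1.26% were called higher and 10.2% lay above the controls. The called glycolysis gene, Ldha, which turns pyruvate into lactate, had 457, 482, 526 and 544 CPM and then 1234, 1450 and 1301 CPM. Its libraries were tight within each group, and it changed by 1.40 (SE 0.182, edgeR, adjusted p = 0.000176, 3 of 3 above).

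Of 35 subunits of oxidative phosphorylation none was called by edgeR or DESeq2, while 17 had an unadjusted p under 0.05. Without control 2, 1 was called. In 18 of the 35 all 3 day 4 libraries lay above the controls, where 10.2% of all genes tested did so. The list median was 0.43, or 0.72 above that of all genes. Atp5b, the catalytic subunit of ATP synthase, had 997, 1373, 1292 and 1168 CPM and then 1934, 2128 and 1919 CPM, an adjusted p of 0.00775 in edgeR at a log2 fold change of 0.72, higher in 3 of 3 but under the fold threshold. Cholesterol and fatty acid synthesis had no called member among 24 tested in edgeR (5 with an unadjusted p under 0.05), 1 in DESeq2, and in edgeR 2 without the filter on low counts and 3 on the 7 libraries alone, with a median of 0.61 and 12 above the controls. Sqle, an early enzyme of sterol synthesis, had 0.924, 0.579, 0.632 and 1.16 CPM and then 19.0, 14.4 and 27.9 CPM, without overlap, and an adjusted p of 0.0809 in edgeR. Sqle was called in DESeq2 and in those 2 edgeR settings (adjusted p = 0.000477 and 0.000355). In ribosome biogenesis 1 of 30 genes was called, Nhp2, a small nucleolar ribonucleoprotein gene, at 1.34, and 11 had all 3 day 4 libraries above the controls, with a median of 0.61. Nhp2 lost its call without control 1 (adjusted p = 0.0541) and without day 4 library 2 (adjusted p = 0.0618), with its change still above 1 on the log2 scale and 3 of 3 or 2 of 2 day 4 libraries higher.

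Immediate early and stress genes had no called member among 30 tested in edgeR (3 with an unadjusted p under 0.05). There was 1 in DESeq2 and 1 in edgeR on the 7 libraries alone. The median was -0.20, or 0.10 above that of all genes. By library the list median against the mean of the controls was 0.44, 0.30, 0.60 and -0.97 in the controls and 0.01, 0.28 and 0.08 at day 4. The summed level was 15504, 15602, 19265 and 4254 CPM in the controls and 10987, 10563 and 11028 CPM at day 4. Control 4 lay far below the other 3 controls, which lay above all 3 day 4 libraries on both measures. The median of the list was -0.51 without control 4 and 0.10 without control 3. Egr1, a growth-signal transcription factor, had 30.1, 26.9, 13.4 and 16.5 CPM in the controls and 46.0, 54.4 and 49.6 CPM at day 4, without overlap, and an adjusted p of 0.111 in edgeR at a log2 fold change of 1.21. Egr1 was called by DESeq2 with default settings and by edgeR on the 7 libraries alone (adjusted p = 0.0316). Hspa8, a constitutive chaperone, had an adjusted p of 0.0255 at 0.89, higher in 3 of 3. Among 18 trafficking receptors none was called by edgeR or DESeq2 (8 had an unadjusted p under 0.05). In edgeR without the filter on low counts 1 was called. The median of the list was -0.16, or 0.13 above that of all genes. Itga4, an integrin chain, had 1260, 791, 1002 and 767 CPM in the controls and 642, 544 and 539 CPM at day 4, without overlap, at -0.73 with an adjusted p of 0.0763 in edgeR.

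NK cell receptors and lineage factors were lower in sum at day 4, with 1 called member in each list. Of 26 tested receptors and adaptors 1 was called lower and 6 had all 3 day 4 libraries below the controls, where 10.5% of all genes tested did so. The median of the receptors was -0.27, beside -0.29 for all genes and 0.00 for genes above 10 CPM, and 12 of the 26 had an unadjusted p under 0.05. Their summed level was 17777, 21492, 22974 and 18127 CPM in the controls and 17568, 14240 and 15853 CPM at day 4, all 3 below the controls, the first of them closely. Klrc2, the activating receptor chain NKG2C, had 624, 500.5, 851 and 455 CPM in the controls and 329, 282 and 266 CPM at day 4. The groups did not overlap, control 3 was the highest, and Klrc2 fell by 1.05 on the log2 scale (SE 0.235, edgeR, adjusted p = 0.0141, 3 of 3 below). It lost its call without control 3 (0.0572), day 4 library 2 (0.105) or day 4 library 3 (0.129), given as adjusted p with 2 or 3 day 4 libraries below the controls. Klra8, the Ly49H receptor of a cytomegalovirus protein, had 1149, 928, 1087 and 781 CPM and then 599, 522 and 611 CPM, a log2 fold change of -0.77 (edgeR, adjusted p = 0.0428, 3 of 3 below) that is under 2-fold. Klrk1, which encodes NKG2D, also lay lower in all 3, at 1972, 1630 and 1650 CPM against 2073, 2698, 2643 and 2415 CPM, with an adjusted p of 0.200. Ly49 genes are close paralogs, and the share of their reads placed at the wrong member is not known here.

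Of 29 lineage and maturation factors tested, 1 was called lower and 5 had all 3 day 4 libraries below the controls. Over all genes tested 0.386% were called lower and 10.5% lay below. The median was -0.17, beside -0.29 for all genes and 0.00 for genes above 10 CPM, and 17 of the 29 lay above -0.29. Their summed level was 7571, 8298, 8087 and 8217 CPM in the controls and 6936, 7148 and 7205 CPM at day 4, without overlap. Cd7, an immunoglobulin-family surface protein, had 258, 353, 297 and 549.5 CPM in the controls and 127, 132 and 125 CPM at day 4. The day 4 libraries of Cd7 were almost equal, each below the lowest control, and it fell by 1.51 on the log2 scale (SE 0.256, edgeR, adjusted p = 0.00197, 3 of 3 below). Eomes, the T-box factor that NK cells need, had 388, 263, 255 and 319 CPM and then 223, 192 and 161 CPM, at -0.67 with an adjusted p of 0.0700 in edgeR, lower in 3 of 3. Itga1, the gene of CD49a, overlapped between the groups.

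The genes that fell most were largely outside the lists. Neat1, a long noncoding RNA that builds paraspeckles, had 399, 157, 190.4 and 343 CPM in the controls and 50.3, 59.4 and 45.3 CPM at day 4. Controls 1 and 4 were the high ones, no control overlapped day 4, and Neat1 fell by 2.40 on the log2 scale (SE 0.474, edgeR, adjusted p = 0.00622, 3 of 3 below). Malat1, another nuclear long noncoding RNA, had 1437, 421, 808 and 419 CPM and then 189, 308 and 123 CPM, and fell by 1.90 (SE 0.463, edgeR, adjusted p = 0.0262, 3 of 3 below). Malat1 lost its call without control 1 (adjusted p = 0.125), control 3 (0.0581), day 4 library 1 (0.130) or day 4 library 3 (0.193), at log2 fold changes from -1.93 to -1.45. Cbx7, a Polycomb protein gene, had 108, 86.4, 90.9 and 136 CPM and then 19.1, 24.8 and 35.6 CPM, and fell by 1.99 (SE 0.369, edgeR, adjusted p = 0.00415, 3 of 3 below). Klra13-ps, a Ly49 pseudogene, had 1440, 579.7, 1267 and 745 CPM and then 200.3, 400.5 and 141 CPM, and fell by 2.03 (SE 0.384, edgeR, adjusted p = 0.00474, 3 of 3 below). It was high in controls 1 and 3, and all 4 controls lay above day 4. On mm10 with Ensembl 96 genes, Neat1 lies on chromosome 19 from 5824708 to 5845478, close to Malat1 at 5795690 to 5802672.

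Among the 12 genes of largest fall that the rule for named genes takes, Spo11, known as the enzyme that breaks DNA in meiosis, had 78.0, 7.62, 46.8 and 38.1 CPM in the controls and 5.56, 5.30 and 3.21 CPM at day 4, with control 2 next to the day 4 level. St5, Peg13, Ypel3, Chd6, Ip6k1, Mirt1 and Rps27 were the others, with log2 fold changes between -2.80 and -1.90. Of these 12, Cbx7, Ip6k1, Klra13-ps and Neat1 were called whichever of the 7 libraries was left out, and the other 8 were not. Ypel3 had an adjusted p of 0.0683 without day 4 library 2, Mirt1 one of 0.0787 without day 4 library 3, and Chd6 of 0.0523, 0.0624 and 0.0654 without day 4 libraries 1, 2 and 3. Spo11 lost its call without control 1 or any day 4 library (adjusted p up to 0.111), Peg13 and Rps27 without any library but control 2 (up to 0.164 and 0.263), and St5 without any of the 7 (up to 0.194). No gene of the 12 was called without controls 1 and 4, where their log2 fold changes ran from -2.48 (Spo11) to -1.38 (Mirt1). The fall of Klra13-ps stands beside the pseudogene shares given above. Long noncoding shares were 2.16%, 1.43%, 1.63% and 1.67% in the controls and 1.44%, 1.39% and 1.135% at day 4. They overlapped only between control 2 and day 4 library 1. Protein-coding shares did not overlap, at 96.28% to 97.59% in the controls and 97.72% to 98.23% at day 4. The part of these shares in the falls was not tested. Exons of 32 of the 115 genes examined by name overlap exons of another gene on either strand, among them Mirt1 with 4833407H14Rik, Cbx7 with Apobec3 and Manf with Rbm15b. The strand setting of the counting is not stated in the sources used here, so reads of such pairs may be shared.

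Day 2 and day 9 place these changes in time. The question of whether the change from control differed between the days is answered by day 4 against day 2 and by day 9 against day 4, since the shared controls cancel. Between day 2 and day 4 edgeR called 295 genes, 188 higher at day 4 (1.1% of the genes tested) and 107 lower (0.626%), with 399 past the adjusted p alone and 3351 at an unadjusted p under 0.05. The higher ones made up 63.7% of the calls, and 47.7% with DESeq2's size factors, where 135 were higher and 148 lower. The day 2 libraries stood apart from each other, at -78.8, 28.6 and -48.0 on the first principal component. The count was 49 without day 2 library 1, 568 without day 2 library 3, and 132, 119 and 74 without day 4 libraries 1, 2 and 3. Without day 2 libraries 1 and 2 edgeR called 0, and the lone day 2 library was then assumed to vary like the other groups. DESeq2 with default settings called 911, and with its earlier prior 643.

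Some division genes were called higher at day 4 than at day 2. Of the 55 mitosis genes 14 were called higher, with a median of 2.43, and of the 46 S phase genes 12, with a median of 1.22. The mitosis list median by library, against the mean of the controls, was -1.04, 1.60 and 1.52 at day 2, 3.57, 3.92 and 3.84 at day 4 and 3.71, 4.24 and 3.25 at day 9. Day 2 library 1 lay at or below the controls, the other 2 day 2 libraries lay between the controls and day 4, and days 4 and 9 overlapped. Kif22 had 12.3, 20.2 and 18.2 CPM at day 2, at the control level, and 227, 209 and 184 CPM at day 9. Its day 4 level was 3.43 above that of day 2 on the log2 scale (SE 0.450, edgeR, adjusted p = 0.000549, 3 of 3 above). Prr11, a mitotic regulator, had no read in the 3 day 2 libraries and 299 reads at day 4. It was at least 26.7-fold higher at day 4, against a limit of 3 counts in each day 2 library.

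Some interferon-stimulated genes were also called higher at day 4 than at day 2. Of the 39 tested interferon-stimulated genes 8 were called higher at day 4 than at day 2, with a median of 1.17, and of the 34 interferon-gamma and antigen presentation genes edgeR called none (17 with an unadjusted p under 0.05), with a median of 0.55. The list median of the interferon-stimulated genes by library was -0.46, 0.48 and 0.64 at day 2, 1.74, 1.62 and 1.45 at day 4, and 1.16, 1.75 and 0.93 at day 9. Usp18 had 68.7, 37.6 and 60.7 CPM at day 2, above most controls, and 266, 309 and 112 CPM at day 9, where library 3 was the lowest. Ldha, with 361, 499 and 465 CPM at day 2 and 1844, 1643 and 975 CPM at day 9, was at or below the control level at day 2 and rose by 1.59 to day 4 (SE 0.201, edgeR, adjusted p = 0.000428, 3 of 3 above). Neat1 had 658, 362 and 342 CPM at day 2 and 33.5, 42.9 and 108 CPM at day 9. Its day 2 libraries lay within or above the range of the controls, and it fell by 3.14 from day 2 to day 4 (SE 0.505, edgeR, adjusted p = 0.00268, 3 of 3 below).

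**Figure D5:**
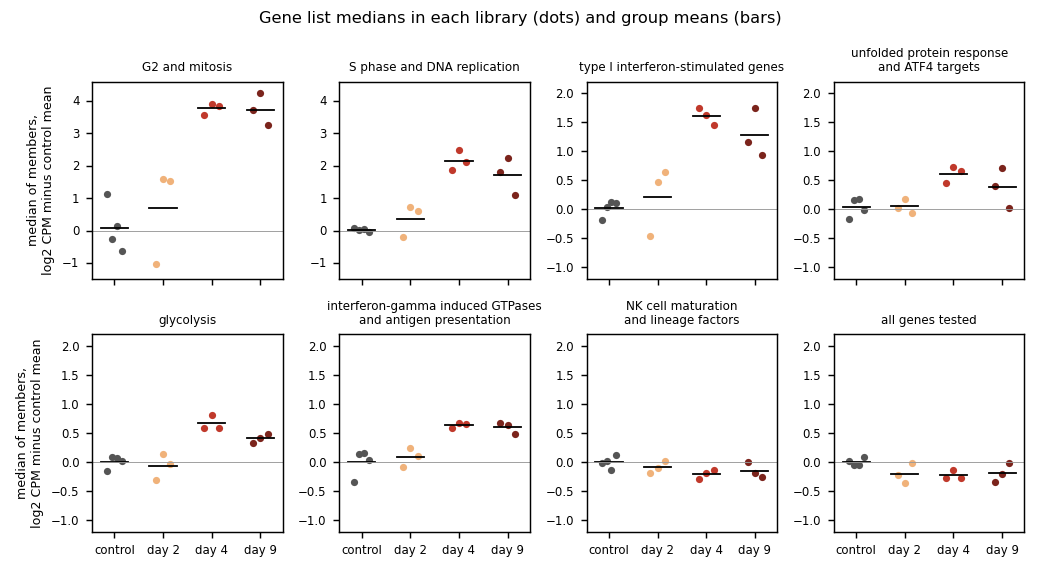
Each point is 1 library, showing the median log2 level of a gene list against the mean of the controls, for control and RMA days 2, 4 and 9. The G2 and mitosis list lies between 3.57 and 3.92 at day 4 and between 3.25 and 4.24 at day 9, while day 2 runs from -1.04 to 1.60.

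Between day 4 and day 9 edgeR called 0 genes (0%), with the smallest adjusted p at 0.901, while 763 had an unadjusted p under 0.05. The day 9 libraries also stood apart from each other, at 91.3, 58.4 and -7.94 on the first principal component. Day 9 library 3 had counts in 24234 genes, against 15263 and 19436 in libraries 1 and 2. Without day 9 library 3 edgeR also called 0. DESeq2 called 29 with default settings and 0 with its earlier prior, and edgeR without the filter on low counts called 10. The mitosis, S phase and interferon-stimulated lists had medians of -0.02, -0.25 and -0.22 in day 9 minus day 4, beside 0.07 for all genes. Cd7 was at 127, 132 and 125 CPM at day 4 and 287, 235 and 182 CPM at day 9, without overlap, at 0.87 on the log2 scale with an adjusted p of 0.901 in edgeR. A p that misses the threshold does not show that the days were alike.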

How the data were processed

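Bulk RNA of sorted spleen NK cells was sequenced as single-end reads from libraries of a messenger RNA kit. The deposited table gives raw counts per gene in 24 columns, 1 for each library. The authors trimmed reads with cutadapt 1.10, removed ribosomal reads with Bowtie2 2.2.8, aligned the rest to mm10 with STAR 2.5.3a and counted Ensembl 96 genes with HTSeq 0.6.1p1. The table lists 45237 genes, and its 48 other per-library columns were not used. The libraries held 5138651 to 14863500 counts each (median 10489204).

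The counts of all 24 libraries were fitted with edgeR 4.0.16 in R 4.3.3 as 7 groups, each with 1 mean, with TMM factors, filterByExpr (17097 genes left) and robust quasi-likelihood tests. Adjusted p-values are Benjamini-Hochberg over those genes, and a gene is called at an adjusted p below 0.05 together with more than a 2-fold change. The contrasts were RMA day 4 minus control, day 4 minus day 2 and day 9 minus day 4. Gene lists were described by counts and medians, with no set test. Genes were named by a rule: the 12 largest called changes in each direction without overlap, at a mean of at least 5 CPM and with no clone name, then called list members (at most 12 a list), genes whose products the study measured, cell type markers, and 2 members of a list with none called. This gave 115 genes. The lists and members were chosen with earlier results of these data known. DESeq2 1.42.0, other filters and factors, a replicate block and left-out libraries were alternatives. Sequences came from RefSeq. Some members of the lists are not reported here.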

Additional observations from a re-analysis of the deposited data

Results flagged for a closer look

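Among the 4 controls, 1 library lay far from the other 3 in 7 of 122 items, where chance alone marks about 1 in 20. Control 4 was the low one for Chd6 (41.7 CPM) and the high one for Mmp9 (1.79 CPM). Control 2 was the high one for Havcr2 (0.0965 CPM, 1 read), control 1 for Top2a (103 CPM), and control 3 for Ifi27l2a (6.00 CPM), Smc2 (77.6 CPM) and Usp18 (55.9 CPM). In Top2a, Ifi27l2a, Smc2 and Usp18 that library still lay below all 3 day 4 libraries.

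For 41 of the genes named, the change from control differed between day 4 and day 2 in edgeR's test of day 4 minus day 2, in which the controls cancel. All values are log2 fold changes of day 4 minus day 2. Division genes were higher at day 4: Kif22 by 3.43, Kif11 by 3.33, Plk1 by 3.17, Spc24 by 2.83, Top2a by 2.70, Rrm2 and Tacc3 by 2.48, Ccne1 by 2.46, Mcm5 by 1.91, Rfc5 by 1.81, Rrm1 by 1.52, Incenp by 1.47, Prim1 by 1.41, Mad2l1 by 1.35 and Mcm4 by 1.19. Prr11 had no read at day 2, so its fitted 9.67 is no bound, and the counts give at least 26.7-fold. Interferon-stimulated genes were higher as well, with Ifi27l2a by 4.51, Usp18 by 2.10, Oas1a by 2.02, Xaf1 by 1.72, Bst2 by 1.55, Lgals3bp by 1.54 and Zbp1 by 1.19. Of other genes, Psat1 was higher by 2.15, Phgdh by 1.93, Tigit by 1.60, Ldha and Sdf2l1 by 1.59, Tnfrsf9 by 1.54, Nhp2 by 1.36 and Car2 by 1.11.

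The remaining genes were lower at day 4 than at day 2. Neat1 stood at -3.14, Spo11 at -3.13, Malat1 at -2.84, Klra13-ps at -2.37, Mirt1 at -2.27, Cbx7 and Chd6 at -1.71, Ip6k1 at -1.60, Klrc2 at -1.28 and Itga4 at -1.10. The day 2 libraries differed widely among themselves, and the number of calls was 49 without day 2 library 1 and 0 without day 2 libraries 1 and 2.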

How the results depend on the processing

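For day 4 against control, the 282 calls (216 higher, 66 lower) became 477 (350, 127) with no filter on low counts, 762 (475, 287) on the 7 libraries alone, 620 (338, 282) with DESeq2 default settings and 450 with its betaPrior (148 lower). Leaving out 1 library gave 166 to 226 calls, 129 to 201 higher and 18 to 64 lower. With replicate number as a replicate block it gave 215. Without controls 1 and 4, chosen after seeing the data, it gave 61 (55, 6). The 295 calls of day 4 against day 2 became 617, 65, 911 and 643 in the same 4 settings, 49 to 568 with 1 library left out, and 0 without day 2 libraries 1 and 2, also chosen after seeing the data. For day 9 against day 4, 0 became 10 with no filter and 29 with DESeq2. The cause was not tested, beyond fewer libraries where some were left out. Of 75 called genes named, 24 were called in every setting that tested them and 51 were not in at least 1. Of the 40 others, 7 gained a call.

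These values changed sign, none of them called. The checkpoint median (0.04) was -0.023 with no filter and -0.11 to 0.34 with 1 library left out, and that of the cytokine receptor list (0.04) was -0.028 to 0.094. That of the immediate early list (-0.20) was -0.51 to 0.098. With 1 library left out, log2 fold changes were -0.30 to 0.069 for Ccl5, -0.0058 to 0.74 for Cd69, -0.075 to 0.17 for Ighm, -0.0046 to 0.27 for Il2rb, -0.61 to 2.49 for Jchain, -0.44 to 0.50 for Nt5e and -0.39 to 0.0085 for Tox. Without controls 1 and 4 they were 0.026 for Ccr2, -0.045 for Gzma, 0.021 for Tox and 2.70 for Mmp9, which was 0.30 in the replicate block. The main fit used no pairing by replicate number. Residuals of equal numbers correlated at -0.0998 to 0.0326 across genes, which are not independent replicates. With so few libraries in a group, these values do not settle whether equal numbers shared handling. At these depths 3 counts equal 0.265 to 0.555 CPM, so genes below that level could not be compared.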
